A study of Drosophila melanogaster with 13 samples.

Results

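MSL3 is a chromodomain subunit of the male-specific lethal (MSL) complex, and the results below concern its 2 peak lists, 1 from adult males with intact MLE and 1 from adult males whose MLE lacked the CLAMP binding domain (CBD). All 2915 MSL3 peaks of MLEwt-FLAG males and all 2301 MSL3 peaks of MLEdeltaCBD-FLAG males were taken, on every chromosome, out of 6400 peaks in the 6 lists of the series. Peaks of the MLEwt-FLAG list are called domains. A domain vanished when no MLEdeltaCBD-FLAG peak overlapped it by 1 bp, it was split when at least 2 such peaks overlapped it, and it was otherwise reduced to or kept as a single peak.

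The study profiled MSL1, MSL2 and MSL3 by ChIP-seq in whole *Drosophila* males 2 to 3 days old, with 2 libraries per protein and line. Males of both lines were y1 w1118 and mle9/mle9, so that endogenous MLE was not functional, and MLE came from a FLAG-tagged transgene driven by the ubiquitous Ubi-p63E promoter from a single landing site on chromosome 3 (86Fb). The MLEwt-FLAG transgene stood over the TM6 balancer, whereas the MLEdeltaCBD-FLAG transgene was homozygous. Transgene copy number therefore differed together with the deletion, and their parts cannot be told apart here. By immunoblot, the study reported similar MLE protein levels in these lines and no significant difference in MSL1 or MSL2. In whole males, a loss of binding in some cell types and weaker binding in all cells cannot be told apart either.

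The MSL complex raises transcription of the single male X chromosome. Its subunit MSL2 recognises high-affinity sites with the help of the zinc finger protein CLAMP, which binds GA-rich DNA, and the helicase MLE loads the roX RNAs onto the complex. MSL3 recognises methylated histone H3 over transcribed genes and is known for spreading from the high-affinity sites across gene bodies, which makes its peaks wide.

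Each line has 1 MSL3 list, made by the authors from both libraries, so that no difference between the lines was tested and no p-value is given. Intervals are 95% Wilson intervals for shares and 95% order-statistic intervals for medians. They cover the counting of peaks only and treat neighbouring peaks as independent. The lists carry no read counts, and sequencing depth is unknown here. Strength was read only as rank by fold enrichment within a list, with 1 the strongest peak. The largest global irreproducible discovery rate was 0.01 in both lists (0.009998 and 0.009972). The lists also give the edges of each peak in a second peak set, and the ratio of second to first width had a median of 1.00 on the X chromosome in both lines. Whether the peak sets are the 2 replicates is not stated in the lists.

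The 4 stretches of genomic sequence printed next stand for the fates described below. They come from the plus strand of the RefSeq dm6 genome and run 60 bp either side of a summit, and capitals mark alternating GA or CT runs of at least 3 units. The HUWE1 stretch (chrX:15730682-15730802) lies at the MSL2 summit in the widest domain, which split. The Raf stretch (chrX:2343501-2343621) and the CG4645 stretch (chrX:12910940-12911060) lie at MSL2 summits in domains that kept nearly their whole width. The Crag stretch (chrX:8600465-8600585) lies at the MSL3 summit of the strongest X domain that vanished, which overlapped no MSL2 peak.
HUWE1: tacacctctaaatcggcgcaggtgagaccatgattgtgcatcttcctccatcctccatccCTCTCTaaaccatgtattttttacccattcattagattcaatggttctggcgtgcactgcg
Raf: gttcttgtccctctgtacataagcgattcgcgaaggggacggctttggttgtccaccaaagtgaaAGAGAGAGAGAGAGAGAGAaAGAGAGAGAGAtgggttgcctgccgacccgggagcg
CG4645: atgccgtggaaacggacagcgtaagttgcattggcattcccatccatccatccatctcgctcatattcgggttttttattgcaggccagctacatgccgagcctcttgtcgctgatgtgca
Crag: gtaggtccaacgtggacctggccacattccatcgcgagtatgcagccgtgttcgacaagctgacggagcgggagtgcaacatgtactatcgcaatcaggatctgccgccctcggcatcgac
The Raf stretch holds an unbroken GA run of 19 bases, the HUWE1 stretch a run of 6 bases, and the CG4645 and Crag stretches none. The kept domain of CG4645 thus shares with the vanished domain of Crag the lack of a run within 60 bp of the summit shown.

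Over the whole list, 1454 of 2915 MLEwt-FLAG domains vanished (49.9%), 180 split (6.17%) and 1281 overlapped a single MLEdeltaCBD-FLAG peak. On the X chromosome, 615 of 1030 domains vanished (59.7%, interval 56.7 to 62.7%), 155 split (15.0%, 13.0 to 17.4%) and 260 overlapped a single peak. On the autosomes, 839 of 1879 domains vanished (44.7%, 42.4 to 46.9%), only 25 split (1.33%, 0.903 to 1.96%) and 1015 overlapped a single peak. The X chromosome thus held 155 of the 180 split domains, and both of its shares lay outside the autosomal intervals. When the MLEwt-FLAG list was shortened to the 2301 strongest peaks, the length of the other list, the vanished share was 58.8% for X domains and 29.3% for autosomal domains. When peaks within 2000 bp of each other were joined first, it was 44.6% and 40.1%, so the distance between X and autosomes depended on how neighbouring peaks were counted.

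The autosomal arms resembled each other. The vanished share was 47.3% on 2L (177 of 374), 46.0% on 2R (215 of 467), 44.3% on 3L (195 of 440) and 41.8% on 3R (244 of 584). On the small chromosome 4, 8 of 14 domains vanished, which is too few to place it. Along the X chromosome, windows of 4 Mb lost between 84 of 157 and 121 of 192 of their domains, so no stretch of the chromosome stood far apart. The 6 domains on the Y chromosome and unplaced sequences all overlapped a single peak.

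MSL3 peaks spanned 3612 kb of the X chromosome in the MLEwt-FLAG list and 1281 kb in the MLEdeltaCBD-FLAG list, 15.3% and 5.44% of the chromosome. Of the length of the X domains, 1265 kb stayed covered (35.0%). On the autosomes the peaks spanned 1927 kb in the MLEwt-FLAG list and 1272 kb in the MLEdeltaCBD-FLAG list, and 40.5% of the autosomal domain length was still covered. The median width on the X chromosome was 2287 bp (interquartile range 1061 to 4727 bp) in the MLEwt-FLAG list and 1200 bp (576 to 2563 bp) in the MLEdeltaCBD-FLAG list. On the autosomes it was 711 bp (439 to 1299 bp) and 560 bp (376 to 968 bp). Wide peaks became rarer. Peaks over 5 kb on the X chromosome numbered 237 in MLEwt-FLAG males and 41 in MLEdeltaCBD-FLAG males, and those over 10 kb numbered 61 and 6. The widest X peak spanned 23867 bp in the first list and 13913 bp in the second.

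The fate of an X domain went with its width. In the narrowest width group (233 to 1061 bp), 192 of 258 domains vanished (74.4%) and none split. In the next group (1062 to 2286 bp), 215 of 257 vanished (83.7%) and 3 split. In the group of 2288 to 4723 bp, 154 of 257 vanished (59.9%) and 27 split. Among the widest domains (4728 to 23867 bp), 54 of 258 vanished (20.9%), 125 split (48.4%) and 79 were left with a single peak. Narrow X domains thus mostly vanished and wide ones mostly split or shrank. The autosomal groups were cut separately and were narrower, the widest spanning 1299 to 11419 bp. Their vanished shares were 43.7%, 39.2%, 48.8% and 46.8% from the narrowest to the widest group. Only 11 autosomal domains were over 5 kb, so these groups cannot show whether wide autosomal domains behave like wide X domains. The median MLEwt-FLAG width of vanished X domains was 1641 bp, that of X domains left with a single peak was 3103 bp, and that of split X domains was 8127 bp.

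**Figure D1:**
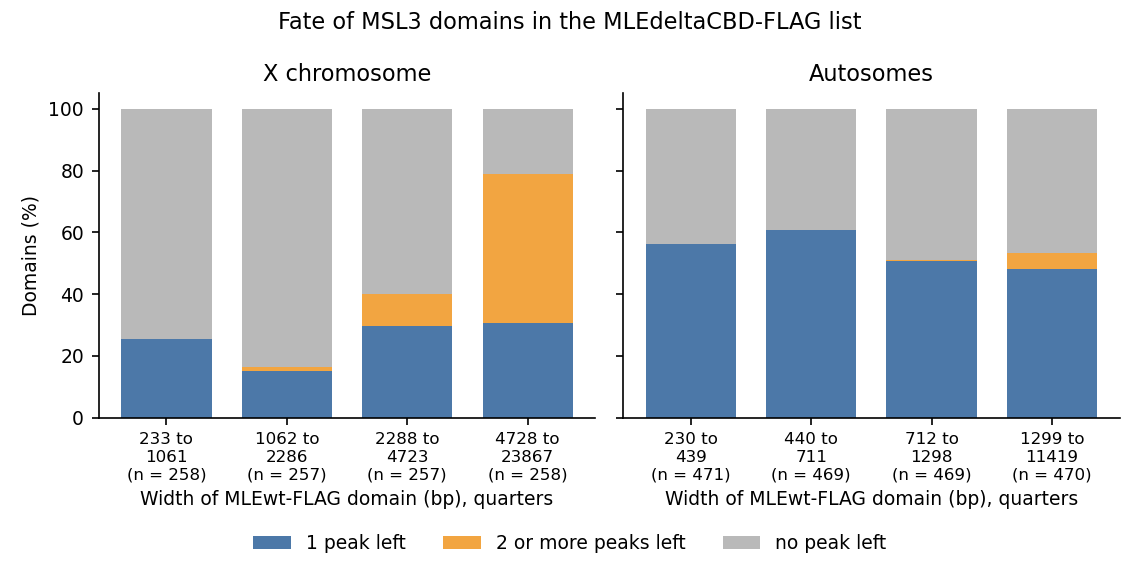
Share of MLEwt-FLAG MSL3 domains (y axis, percent) left with 1 MLEdeltaCBD-FLAG peak, with 2 or more, or with none, in 4 groups of equal size by domain width (x axis, bp), on the X chromosome (left) and the autosomes (right). On the X chromosome the vanished share was 74.4% in the narrowest and 20.9% in the widest group, while on the autosomes it lay between 39.2% and 48.8% in every group. The groups were cut separately for X and autosomes, so their widths differ.

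Among the 155 split X domains, 100 were left with 2 peaks, 30 with 3, 21 with 4, 2 with 5, 1 with 6 and 1 with 7. All 25 split autosomal domains had 2. The median remaining peak in split X domains was 1534 bp wide, and the 242 gaps between them had a median of 514 bp (interquartile range 308 to 1006 bp). Gaps under 500 bp numbered 120 and gaps of 2000 bp or more 17. The remaining peaks covered 61.5% of the length of split X domains, 815 of 1325 kb, and the gaps between them took up 198 kb, so length was also lost outside the gaps, at the ends of the domains.

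The 5 widest X domains all split. The widest (chrX:15713169-15737035, 23867 bp) centred on HUWE1, which encodes a giant HECT-type ubiquitin ligase, and also held MagR, Arp6, CG8191 and CG12379. It was left with 4 peaks of 6240, 9722, 458 and 666 bp, which together covered 71.6% of it. The domain of IntS2, a subunit of the Integrator complex, also held CG5800 and RhoGAPp190 (chrX:17636354-17656850, 20497 bp). It broke into 7 peaks of 355 to 3904 bp that covered 75.5% of it, more pieces than in any other domain. Some neighbouring peaks among these 7 had the same width in the second peak set, so the count rests on the first set. The domain of pcm, the cytoplasmic 5′ to 3′ exoribonuclease Pacman (chrX:19475069-19494988, 19920 bp, 8 genes), was left with 4 peaks covering 71.2%. The domain of HERC2, another large ubiquitin ligase (chrX:20394248-20413288, 19041 bp), was left with peaks of 13913 and 758 bp covering 77.0%, the first of which was the widest X peak of MLEdeltaCBD-FLAG males. The domain around pod1, which encodes a coronin-like actin and microtubule linker (chrX:6805293-6824105, 18813 bp), kept 44.4% of its length in 4 peaks. All 5 overlapped MSL1 and MSL2 peaks of MLEwt-FLAG males. Among other X domains, the most pieces were found at CG17600, LPCAT and CG14613. The domain of CG17600 with the kinase gene S6kII had 6 peaks (10389 bp, 68.0% covered). That of LPCAT, a lysophospholipid acyltransferase, had 5 peaks (17928 bp, 55.7%), and that of CG14613 with Usp2 had 5 peaks (11702 bp, 71.6%). Neighbouring peaks at CG17600 and at LPCAT, but not at CG14613, also shared a width in the second peak set.

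**Figure D2:**
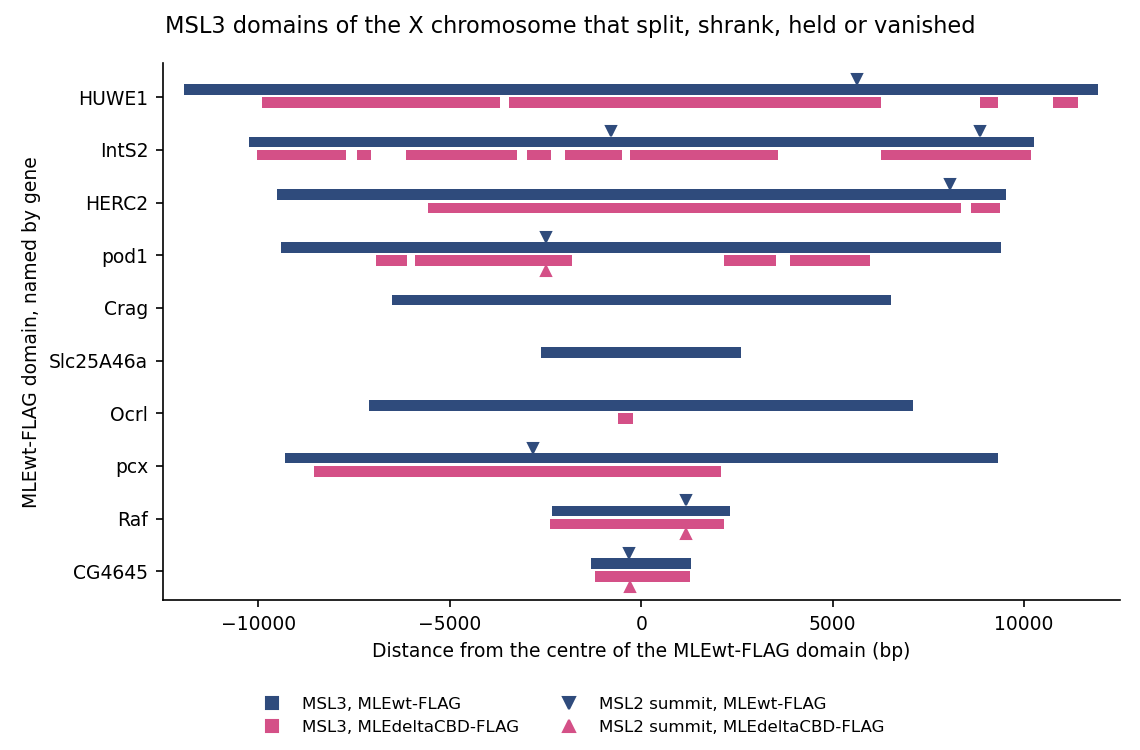
MSL3 peaks at 10 X domains named by gene, as distance in bp from the centre of the MLEwt-FLAG domain (x axis); dark bars are MLEwt-FLAG and pink bars MLEdeltaCBD-FLAG peaks, and triangles mark MSL2 summits inside the domain in each line. HUWE1, IntS2, HERC2 and pod1 were left with 4, 7, 2 and 4 peaks, Crag and Slc25A46a with none, Ocrl with a peak of 396 bp, and Raf and CG4645 with peaks of 4553 and 2480 bp, down from 4645 and 2614 bp.

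Where exactly 1 MLEdeltaCBD-FLAG peak overlapped exactly 1 domain, widths could be compared directly. Of 1276 such pairs over all sequences, 227 had under 50% of the MLEwt-FLAG width (17.8%). The X chromosome held 258 pairs with a median width ratio of 0.56 (interval 0.48 to 0.64, interquartile range 0.30 to 0.82), and 118 of these were under 50% and 22 were not narrower. The autosomes held 1012 pairs with a median ratio of 0.92 (0.90 to 0.94, interquartile range 0.73 to 1.05), and 109 were under 50% while 347 were not narrower. With the edges of the second peak set of the same pairs, the median ratios were 0.53 and 0.92. Within a line the second width over the first had an interquartile range of 0.970 to 1.04 for the X pairs of MLEwt-FLAG males and 0.953 to 1.06 for those of MLEdeltaCBD-FLAG males. The X median of 0.56 lay below both ranges. Whether the peak sets are replicates is not stated, so these ranges cannot be taken as replicate spread. On the autosomes the corresponding ranges were 0.923 to 1.08 and 0.896 to 1.09, so the autosomal median of 0.92 lay at their lower edge.

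X domains are wider than autosomal domains, so the ratios were also compared within width classes. Up to 500 bp the median ratio was 0.98 on the X chromosome (n = 39) and 1.04 on the autosomes (n = 351). From 500 to 1000 bp it was 0.70 (interval 0.45 to 0.84, n = 22) and 0.90 (0.87 to 0.92, n = 346). From 1000 to 2000 bp it was 0.40 (interval 0.32 to 0.50, n = 30) and 0.85 (0.78 to 0.90, n = 213), and from 2000 to 4000 bp it was 0.43 (0.35 to 0.58, n = 71) and 0.73 (0.54 to 0.84, n = 94). Above 4000 bp it was 0.50 (n = 96) and 0.68 (n = 8). X domains from 500 to 2000 bp were therefore shortened further than autosomal domains of the same width, the narrowest X domains kept about their width, and above 2000 bp the intervals of X and autosomes overlapped.

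**Figure D3:**
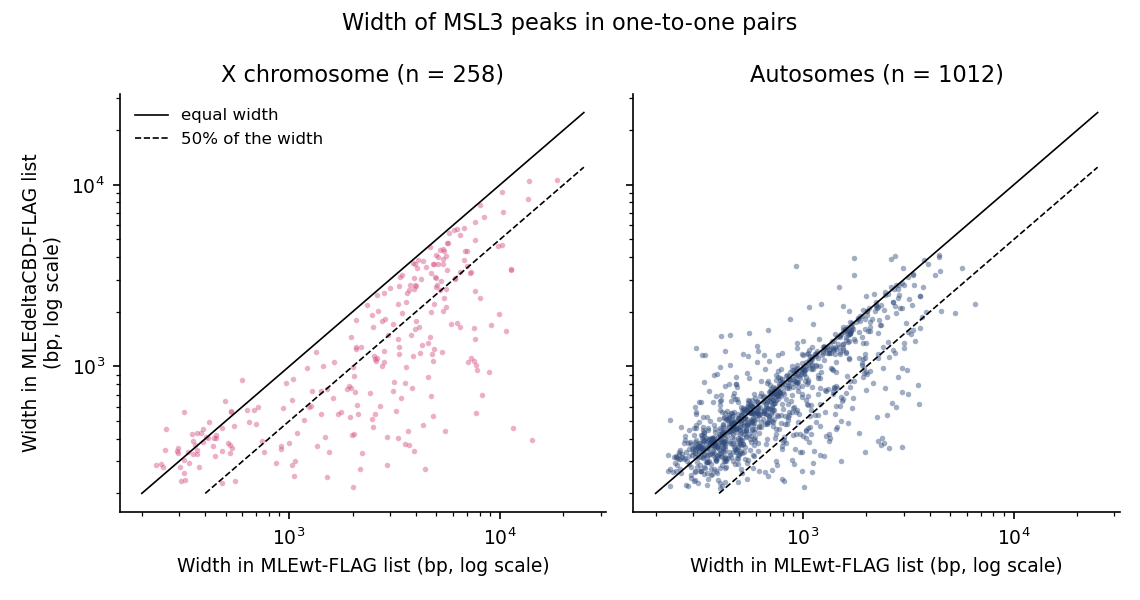
Width of each one-to-one MSL3 pair in the MLEdeltaCBD-FLAG list (y axis, bp, log scale) against its width in the MLEwt-FLAG list (x axis, bp, log scale), for 258 pairs on the X chromosome (left) and 1012 on the autosomes (right); 1 point is 1 pair, the solid line marks equal width and the dashed line 50% of it. Under the dashed line lie 118 of 258 X points (45.7%) and 109 of 1012 autosomal points (10.8%). The median autosomal ratio was 1.04 for domains up to 500 bp and 0.73 for those from 2000 to 4000 bp.

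The largest losses of width among X pairs were at Ocrl, which encodes a phosphoinositide phosphatase, and at CG2924. The Ocrl domain (chrX:1916226-1930447), which also held mip130, eIF2Bepsilon, CG11596 and Rbcn-3B, went from 14222 bp to a single peak of 396 bp. Its width in the second peak set was 20202 bp in MLEwt-FLAG and 2771 bp in MLEdeltaCBD-FLAG males, a different size of loss in the same direction. The CG2924 domain (chrX:2262820-2274392) went from 11573 to 458 bp, with 11530 and 455 bp in the second set. The remnant at CG2924 ranked 171 in its list, although the whole domain had ranked 354 in the first list, so a strong narrow peak outlasted a wide domain. Zdhhc8, a palmitoyltransferase gene, went from 10664 to 1572 bp, but its domain was 3899 bp wide in the second MLEwt-FLAG peak set, so the first value rests on 1 peak set. The domain of pcx, a gene of Notch signalling, with kz and fs(1)K10 went from 18619 to 10632 bp, and that of Ubr3, a ubiquitin ligase, from 9906 to 1951 bp.

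At the other end, a few wide X domains kept their width. Raf, the kinase of the MAP kinase cascade, had a domain of 4645 bp (chrX:2340074-2344718, rank 16) and a MLEdeltaCBD-FLAG peak of 4553 bp (rank 95). The other best kept domains of at least 2000 bp were those of raptor, a subunit of the TORC1 complex (8060 to 7744 bp), CG32573 (3880 to 3722 bp), CG4645 (2614 to 2480 bp) and the mucin-related Mur2B (4096 to 3875 bp). In the second peak set of MLEdeltaCBD-FLAG males, the peaks of Raf, raptor and Mur2B were narrower, with 3807, 7002 and 3408 bp. Raf, raptor, CG32573 and CG4645 overlapped MSL1 and MSL2 peaks of MLEwt-FLAG males, and Mur2B overlapped neither.

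The strongest X domain that vanished lay at Crag, a guanine nucleotide exchange factor for Rab GTPases, and Caf1-180, a subunit of chromatin assembly factor 1 (chrX:8593361-8606397). It was 13037 bp wide and ranked 250 of 2915, and no MLEdeltaCBD-FLAG peak overlapped any of it. The next were at Slc25A46a, a mitochondrial carrier family gene (5233 bp, rank 276), CG15772 (2573 bp, rank 283), CG3632 (5702 bp, rank 295) and Arp8, an actin-related subunit of the INO80 remodelling complex (3686 bp, rank 305). None of these 5 overlapped an MSL2 peak in either line, and only Slc25A46a overlapped an MSL1 peak, in MLEwt-FLAG males. None of the X domains ranked 1 to 249 vanished.

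Strength and fate were close to each other within the MLEwt-FLAG list. In the strongest of 3 equal groups of X domains by rank, 44 of 344 vanished (12.8%, 9.67 to 16.7%) and 152 split. In the middle group 274 of 343 vanished (79.9%), and in the weakest group 297 of 343 (86.6%). On the autosomes the corresponding counts were 60 of 627 (9.57%), 295 of 626 (47.1%) and 484 of 626 (77.3%). The middle X group thus had a higher vanished share than the middle autosomal group, while the strongest groups had similar shares. The groups were cut separately, so their ranks differed. The median rank was 194.5 in the strongest X group and 897 in the strongest autosomal group. In the middle groups it was 748 (X) and 1868 (autosomal). The middle X group (79.9% vanished) was thus closer in rank to the strongest autosomal group (9.57%) than to the middle one (47.1%). Domains that vanished were not narrow misses: the nearest MLEdeltaCBD-FLAG peak was a median of 6296 bp away on the X chromosome, with 23 of 615 within 500 bp and the nearest at 228 bp. The smallest overlap counted as shared was 165 bp on the X chromosome and 214 bp on the autosomes.

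The order of MSL3 peaks by strength also turned over. Of the 20 strongest MSL3 peaks, 19 lay on the X chromosome in MLEwt-FLAG males and 2 in MLEdeltaCBD-FLAG males. Of the 100 strongest, 92 and 19 lay on the X chromosome, and of the 500 strongest, 376 and 162. The median X peak ranked 748 of 2915 (the strongest 25.7% of the list) and 941 of 2301 (40.9%). Among one-to-one pairs, the median X pair stood at 12.4% of the MLEwt-FLAG list from the top and at 37.7% of the MLEdeltaCBD-FLAG list, and 190 of 258 pairs fell in rank percentile. The median autosomal pair stood at 45.6% and 39.4%, and 585 of 1012 pairs rose. A rank is relative to the rest of its list, so a rise on the autosomes and a fall on the X chromosome are the same observation seen from either side.

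Gene parts were assigned base by base, and a promoter reached 200 bp to each side of an annotated start. Coding exons made up 52.6% of the X domain length in MLEwt-FLAG males, 3′ UTRs 18.3%, introns 15.4%, promoters 8.31%, 5′ UTRs 2.85% and intergenic sequence 1.90%. MLEdeltaCBD-FLAG peaks still covered 42.6% of the coding length of X domains, against 27.5% of the 3′ UTR, 26.5% of the intron, 25.9% of the intergenic, 24.5% of the promoter and 24.0% of the 5′ UTR length. X domains thus kept more of their coding sequence than of any other part except non-coding exons (46.7% of only 21.6 kb). The autosomal domains showed another order, with 77.0% of the intergenic and 57.5% of the promoter length covered, but 33.6% of the coding, 35.3% of the intron, 34.3% of the 5′ UTR and 31.7% of the 3′ UTR length. With promoters taken as 1000 bp either side, the promoter value was 27.7% for X domains and 46.7% for autosomal domains, and coding exons still kept more than promoters on the X chromosome (46.3%). The autosomal 5′ UTR value was 19.1% with that window, so it depended on where promoters were taken to end.

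**Figure D4:**
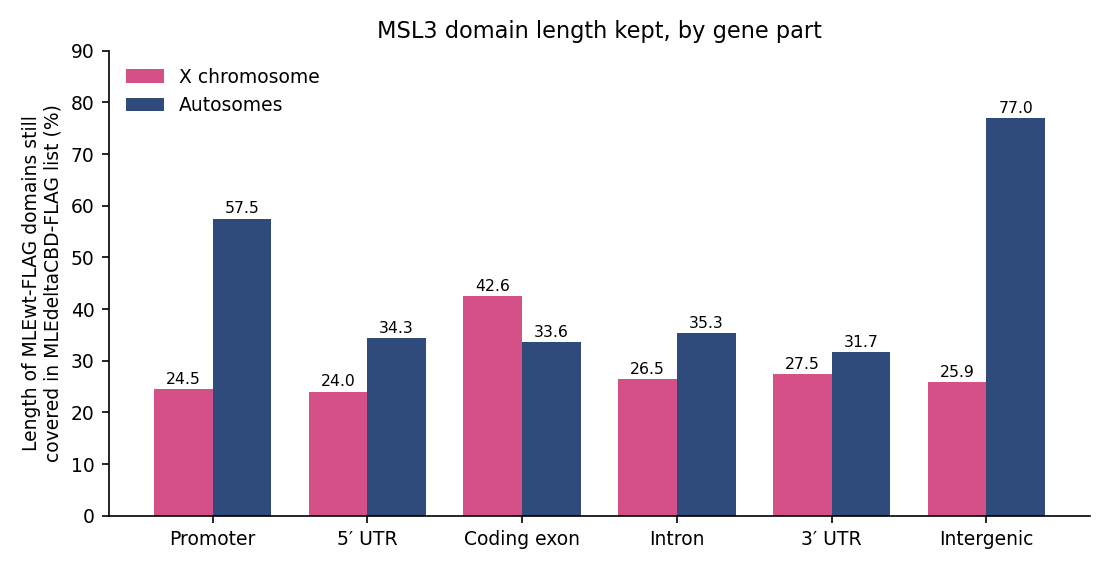
Share of the MLEwt-FLAG MSL3 domain length (y axis, percent) that MLEdeltaCBD-FLAG peaks still covered, by gene part (x axis), on the X chromosome (pink) and the autosomes (blue). Of the parts drawn, coding exons kept most on the X chromosome (42.6%) and intergenic sequence (77.0%) and promoters (57.5%) on the autosomes; non-coding exons, which are short in total, are not drawn (46.7% and 62.8%).

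Sorted by where the summit lay, X domains showed another order than by length. On the X chromosome, 436 of 703 domains with a summit in a coding exon vanished (62.0%), 51 of 102 with a summit in a promoter (50%), and 7 of 26 with an intergenic summit (26.9%). On the autosomes, 435 of 679 coding (64.1%), 241 of 687 promoter (35.1%), 63 of 169 intronic (37.3%) and 25 of 192 intergenic domains (13.0%) vanished. Domains with a coding summit therefore had similar vanished shares on X and autosomes, but they differed in strength and width. Their median rank was 592 for X domains and 2334 for autosomal domains, and their median width 2971 and 1339 bp. The similar shares are thus not a comparison at like strength, and the part of strength was not tested. The autosomes held more promoter and intergenic domains. The median width ratio of one-to-one pairs with a promoter summit was 0.57 on the X chromosome (interval 0.40 to 0.84, n = 50) and 0.90 on the autosomes (0.87 to 0.92, n = 438). Coding pairs had ratios of 0.48 (0.43 to 0.57, n = 145) and 0.89 (0.85 to 0.93, n = 229). Intergenic pairs had ratios of about 1, with 1.11 on the X chromosome (0.88 to 1.20, n = 19) and 1.04 on the autosomes (0.99 to 1.07, n = 166).

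Split X domains broke mostly outside coding sequence. Within them, 80.4% of the coding length was still covered, against 48.4% of the 3′ UTR, 43.8% of the intron, 41.0% of the 5′ UTR, 32.7% of the promoter and 21.8% of the intergenic length. The gaps between the remaining peaks consisted of 3′ UTR for 36.0% of their length, of intron for 31.5%, of coding exon for 13.5% and of promoter for 12.9%. The remaining peaks themselves consisted of coding exon for 64.6%, of 3′ UTR for 15.5% and of intron for 12.5%. The 3′ end of a protein-coding gene lay in 79 of the 242 gaps and in 54 of the 397 peaks, and since some held several ends, there were 0.655 gene ends per kb of gap and 0.107 per kb of peak. Transcription starts lay at 0.353 per kb of gap and 0.102 per kb of peak. In 141 gaps there was neither. The breaks in wide domains were thus richer in gene ends and starts than the parts that stayed, as a description of these domains that was not tested.

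The profile along genes showed where in a gene the coverage went. For 1154 protein-coding X genes of at least 1000 bp with an MLEwt-FLAG domain, mean MSL3 coverage was 46.5% in the first of 10 equal bins from 5′ to 3′, rose to 80.0% in the eighth and was 72.7% in the last. In MLEdeltaCBD-FLAG males it was 9.99%, 29.3% and 17.8% in the same bins. The ratio of the lines was lowest at the ends of genes (21.5% in the first and 24.4% in the last bin) and highest in the sixth (37.9%). For 1524 autosomal genes, coverage was 24.9% in the first bin and 29.2% in the eighth in MLEwt-FLAG males, and 17.5% and 9.29% in MLEdeltaCBD-FLAG males. The autosomal ratio was highest in the first bin (70.2%) and lowest in the eighth (31.8%). On autosomal genes the ratio was thus higher at the 5′ end than in the body, while on X genes it was higher in the body than at either end. New MLEdeltaCBD-FLAG peaks count in this ratio, so it is not the share of the MLEwt-FLAG coverage that remained. At the edges of one-to-one X pairs with a summit in a gene (n = 215), the median loss was 407 bp at the 5′ side and 754 bp at the 3′ side, with 139 pairs losing more at the 3′ side and 75 at the 5′ side. Autosomal pairs (n = 622) had the same direction with small losses, 32.5 bp at the 5′ side and 42.5 bp at the 3′ side. Of these, 343 lost more at the 3′ side and 275 at the 5′ side. Among X domains with any peak left, 403 of 415 had their MLEwt-FLAG summit inside a remaining peak (97.1%).

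**Figure D5:**
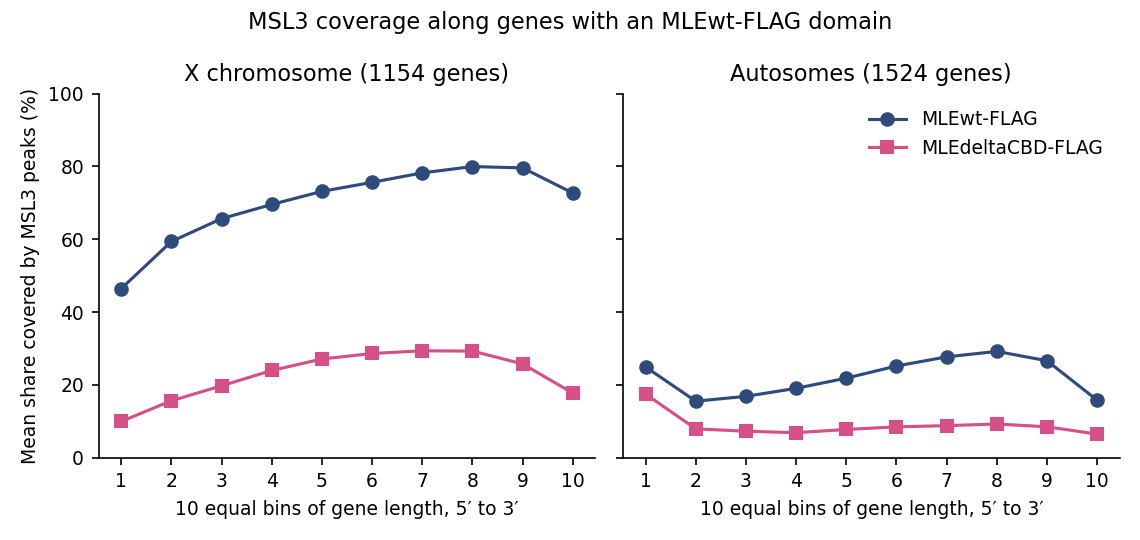
Mean share of each bin of a gene covered by MSL3 peaks (y axis, percent; x axis, 10 equal bins from 5′ to 3′) in MLEwt-FLAG (circles) and MLEdeltaCBD-FLAG (squares) males, for 1154 X genes and 1524 autosomal genes with an MLEwt-FLAG domain; genes, not replicates, are averaged. On the X chromosome the eighth bin went from 80.0% to 29.3%, and on the autosomes the first bin went from 24.9% to 17.5%.

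Counted by gene, 917 of 2196 protein-coding X genes were at least 50% covered by MSL3 peaks in MLEwt-FLAG males and 289 in MLEdeltaCBD-FLAG males. Of the 917, 288 stayed at or above 50%, 174 were partly covered and 455 had no MSL3 peak left. On the autosomes 288 of 11749 genes were at least 50% covered in the first list and 118 in the second, 70 of them in both. Of all 1231 X genes with any MLEwt-FLAG coverage, 655 lost it all (53.2%), 549 were less covered, 16 equally and 11 more.

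Genes chosen for their function were read against that 53.2%. The X-linked roX genes, whose RNAs are part of the complex and which hold high-affinity sites, kept MSL3. Coverage of roX1 was 78.6% in MLEwt-FLAG and 76.1% in MLEdeltaCBD-FLAG males, and its widest peak went from 6982 bp (rank 9) to 4297 bp (rank 40). roX2 was fully covered in both lists, by a peak of 8399 bp (rank 102) and of 6646 bp (rank 253). Stt3A (CG1518), an oligosaccharyltransferase gene that held the strongest MSL3 domain of MLEwt-FLAG males, went from 4058 bp (rank 1) to 3491 bp (rank 49). The X-linked acetyltransferase gene mof went from 90.6% to 76.9% coverage and from rank 164 to rank 1101. The autosomal Clamp gene was 57.1% and 26.8% covered, and msl-1, msl-2 and msl-3 held no MSL3 peak in either list.

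Among 14 X housekeeping and cytoskeleton genes, 13 had a domain and 3 of these had no peak left, namely the actin gene Act5C, the myosin light chain gene sqh and the ADP/ATP translocase gene sesB. The other 10 were less covered. Gapdh2 went from 96.5% to 26.9%, the RNA polymerase II subunit gene Polr2A from 91.6% to 50.9%, and Vap33 from a domain of 16027 bp to 3 peaks of up to 936 bp. Among 11 X neuronal genes, 8 had a domain and 7 had no peak left: elav, rut, dnc, Sh, shi, per and Appl. The best ranks of these 7 ran from 409 (per) to 1693 (Appl). Of all X domains, 79.9% of the middle and 86.6% of the weakest strength group vanished. The part of strength in this count was not tested. The dynamin gene shi had 4 domains covering 71.0% of it and per, the circadian clock gene, 1 of 9799 bp (rank 409). The 8th, norpA, the phospholipase C of phototransduction, went from 17.5% to 6.08%. Of the 8 signalling genes, 7 had a domain and sgg and fu had no peak left. hep, the kinase upstream of JNK, had a domain of 9160 bp (rank 10) and a peak of 3996 bp (rank 80). Of the classical compensated genes, w, y and v had no domain. Both lines carried the mutant alleles y1 and w1118, and the part of these alleles was not tested. Zw lost its domain of 2994 bp, Pgd went from 49.4% to 31.8% coverage, r from 49.9% to 1.15%, and f from 8.72% to 2.04%. The lists are short and their members were chosen with results known, so that these counts describe the named genes only.

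MSL2 peaks, which were not used to define the fates, divided the MSL3 domains of the X chromosome. Of 1030 X domains, 197 overlapped an MSL2 peak of MLEwt-FLAG males. Of these, 12 vanished (6.09%, 3.52 to 10.3%), 111 split and 74 were left with a single peak, and 61.4% of their length stayed covered. Of the 833 domains without an MSL2 peak, 603 vanished (72.4%, 69.3 to 75.3%), 44 split, and 16.4% of the length stayed covered. The division held at similar widths. In the widest of 3 groups, 3 of 161 domains with MSL2 and 94 of 183 without vanished, and in the middle group 1 of 25 and 249 of 317, but in the narrowest group 8 of 11 and 260 of 333. The narrowest group thus had similar shares with and without MSL2. Strength moved with MSL2 as well, and its part in the division was not tested. MSL1 gave a like division, with 7 of 188 domains with and 608 of 842 without an MSL1 peak vanishing.

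Proximity to MSL2 without overlap went with smaller differences. Among domains up to 5 kb from an MSL2 peak, 116 of 178 vanished (65.2%). The share was 76.1% from 5 to 20 kb (268 of 352), 76.1% from 20 to 50 kb (156 of 205) and 64.3% beyond 50 kb (63 of 98). When a domain counted as having MSL2 if a peak lay within 5 kb, the vanished share of such domains was 34.1%. All 216 X-linked MSL2 summits of MLEwt-FLAG males lay in MLEwt-FLAG MSL3 domains, and 182 of them were still covered by an MSL3 peak of MLEdeltaCBD-FLAG males (84.3%, 78.8 to 88.5%). The MSL2 list of MLEdeltaCBD-FLAG males held 59 X peaks, and MSL3 thus stayed at many places where MSL2 was no longer called. In the 111 split domains with an MSL2 summit, the 114 remaining peaks that held the summit were 2764 bp wide at the median and ranked 477, and the 187 others were 1275 bp wide and ranked 1017.

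A GA repeat was counted where 4 GA units followed each other, read on both strands, in the window of 100 bp to each side of the MSL3 summit. They were present at 27 of 615 vanished (4.39%), 4 of 260 single (1.54%) and 5 of 155 split X domains (3.23%), against 1.53% of all X windows of the same length. Over all widths, the summits of kept MSL3 domains were thus no richer in the repeat than those of vanished domains. In the narrowest of 3 width groups it lay at 22 of 268 vanished and 1 of 76 kept domains. The counts were 4 of 250 and 1 of 92 in the middle group. In the widest group the order turned, with 1 of 97 vanished and 7 of 247 kept domains. Anywhere in the domain, the repeat was found in 14.8% of vanished, 19.6% of single and 43.9% of split domains, which are also the widest. Per 10 kb of domain there were 1.06 repeats in vanished, 0.762 in single and 0.951 in split domains, against 0.902 on the whole X chromosome. Split domains thus held no more repeats for their length than vanished ones.

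New MSL3 peaks were rare on the X chromosome. Of 2301 MLEdeltaCBD-FLAG peaks, 576 overlapped no domain (25%). They made up 31 of 687 peaks on the X chromosome (4.51%, 3.20 to 6.33%) and 507 of 1570 on the autosomes (32.3%, 30.0 to 34.6%). The share was between 29.2% and 33.8% on each of 2L, 2R, 3L and 3R, and 17 of 23 peaks on chromosome 4 were new. The median new peak was 296 bp wide on the X chromosome and 536 bp wide on the autosomes, and ranked 1101 and 1668. On the autosomes, 43.9% of the peaks with a coding summit were new (197 of 449) and 22.5% of those in promoters (131 of 581). The strongest new autosomal peaks were intergenic, with Pex7 (chr3L:8651975-8652466, rank 431), Hml (chr3L:13845320-13845725, rank 469) and, on chromosome 4, Cadps (chr4:1306394-1307113, rank 473) as the nearest starts, at 2616, 576 and 74717 bp. The strongest new X peaks were an intergenic peak (chrX:54235-54524, rank 507) whose nearest annotated start, that of lncRNA:CR40469, was 68110 bp away, a peak at the promoter of goe (rank 534) and a peak in the 3′ UTR of CG33557 (rank 632).

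The mle gene on 2R also gained MSL3 peaks, with none in MLEwt-FLAG males and 3 in MLEdeltaCBD-FLAG males of 1931, 638 and 446 bp, which covered 50.9% of it. The transgene carries mle sequence and was homozygous only in MLEdeltaCBD-FLAG males, and peaks at the endogenous gene and at the transgene cannot be told apart. The same holds for the promoter source Ubi-p63E, where a peak of 868 bp in MLEwt-FLAG and of 1822 bp in MLEdeltaCBD-FLAG males was called.

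On the autosomes, the strongest domains that vanished were narrow and intronic, at Pde11, a phosphodiesterase gene (666 bp, rank 466), Dys, which encodes dystrophin (554 bp, rank 506), and mbl, the splicing factor muscleblind (436 bp, rank 636). The largest rises in rank percentile among autosomal pairs were at an intergenic peak 3141 bp from the start of lncRNA:CR45958 (rank 2519 to 565), at tou, a chromatin remodelling gene (rank 2745 to 750, 926 to 3553 bp), and at the spindle checkpoint gene mad2 (rank 2037 to 218). The largest falls were at the Toll-family gene Tollo (rank 460 to 2135), near the Pax gene toe (rank 800 to 2240) and at the calmodulin gene Cam (rank 570 to 1904, 1058 to 687 bp).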

How the data were processed

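ChIP-seq of MSL1, MSL2 and MSL3 was done in adult males of both lines with 2 libraries each. Reads were cut with cutadapt, aligned to dm6 with Bowtie2 and given to MACS2 for peak calling; Picard, deepTools and dm3 are also named in the submitters' processing notes. The lists hold peaks kept after the irreproducible discovery rate (IDR) step. The authors deposited 1 list per protein and line; 0 columns were labelled with a replicate. The fold enrichment is a ratio over background, computed by the authors with MACS2. The −log10 p, −log10 q and −log10 IDR values are also as the authors deposited them. Start, end and −log10 p of each peak equal those of the first peak set in the list, and the set behind the fold enrichment is not stated. The score column was deposited by the authors and not used.

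Peaks were compared with python 3.11.15, numpy 2.4.6, pandas 2.3.3 and scipy 1.17.1, and drawn with matplotlib 3.10.9. Genes came from the Ensembl release 115 annotation of BDGP6.54 (18164 genes and 35497 transcripts, transposable elements left out). Each base was given 1 gene part, in the order promoter, 5′ UTR, 3′ UTR, coding exon, other exon, intron, intergenic. Domains were named by the gene at the summit, otherwise by the nearest start. Named domains were the 5 widest, strongest vanished, most divided, most shortened and best kept on the X chromosome, the 3 strongest new peaks per class, the 3 strongest vanished autosomal domains, the 3 largest rises and falls in rank, and gene lists. Members, lists and rules were chosen with earlier results of these data known. Alternatives covered the overlap, thresholds, list lengths, joined peaks, second edges, the promoter window, ranks by −log10 p and the distance to MSL2. Functions were tested on simulated lists. The preimmune library, coverage tracks and high-affinity site lists were not used here, and positions are counted from 1.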

Additional observations from a re-analysis of the deposited data

Results flagged for a closer look

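Outside the X chromosome and the autosomes, the MSL3 list of MLEdeltaCBD-FLAG males held 44 peaks, of which 19 lay on Y sequences, 6 on unlocalised X sequences and 19 on unplaced sequences, against 6 in MLEwt-FLAG males. Above, they enter the whole-list counts, the ranks within the list, the one-to-one pairs over all sequences and the fate of the 6 MLEwt-FLAG domains. They enter no value given for the X chromosome or the autosomes other than through the ranks. They were narrow, with a median width of 355.5 bp and a best rank of 327 of 2301, and 38 of them overlapped no MLEwt-FLAG peak. Mappability and copy number of these sequences were not tested.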

How the results depend on the processing

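Of 125 values recomputed under the alternatives, 86 stayed within a 95% interval around the value reported and 39 moved out of it. For shares of length, the interval treated the share as if it were a count of all X or all autosomal domains. It is no sampling interval for length, so for those values the count is only a rough yardstick. A −log10 q of 3 or more removed no peak. In every peak alternative the vanished share was higher on the X chromosome than on the autosomes and the one-to-one width ratio lower, whereas the order of the new-peak shares turned with summits within 250 bp. With that criterion, the vanished shares were 66.9% (X) and 49.6% (autosomes), the new shares 50.4% and 39.7%, the X width ratio 0.42 (the cause was not tested) and the split shares 0 and 0, the latter because a domain has only 1 summit. With a global IDR of 0.001 or less, the autosomal vanished share was 37.6%, the autosomal split share 0.784%, the new X share 6.44%, and the length kept 38.7% in X coding, 27.6% in autosomal coding and 61.1% in autosomal promoter sequence. With equal list lengths, the autosomal vanished share was 29.3%, the new share 40.0% and the length kept 51.7%. Joining peaks within 500 bp gave a vanished X share of 54.2% and an autosomal split share of 0.789%, and within 2000 bp vanished shares of 44.6% (X) and 40.1% (autosomes) and split shares of 12.8% and 0.749%. Promoters of 1000 bp either side gave 27.7% (X) and 46.7% (autosomes) for promoters, 46.3% for X coding exons and 19.1% for autosomal 5′ UTRs. Ranked by −log10 p, the median X ranks were 840 and 1037. With MSL2 within 5 kb, 34.1% of domains with MSL2 vanished. No paired analysis was possible because each list pools its libraries without replicate labels, which also prevented leaving out a replicate. Unknown depth limits every count of peaks, and a vanished domain is one not called, not one shown to lack MSL3.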
